A study of Mus musculus with 3 samples.

Results

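Chromosome 11 carried 618 of the 24666 peaks in the L1 peak list, and these 618 are all the peaks whose chromosome is given as 11. In ChIRP, short for chromatin isolation by RNA purification, biotin-tagged DNA probes hybridise to a chosen RNA in crosslinked nuclei and pull it down with the chromatin around it, and a peak is a stretch of genome called as enriched in what was recovered. The peaks come from 1 library of a mouse embryonic stem cell line, E14, kept in serum and leukemia inhibitory factor, in which L1 RNA was captured with probes of 59 nt. The study's other libraries, a Malat1 RNA capture and an input DNA from the same cells, were not analysed here. No genetic change or treatment is given for the cells. The labels name genomic DNA as the molecule while the protocol describes reverse transcription of the recovered RNA, so which of the pair was sequenced is not settled. The read depth is unknown, and a place without a peak may hold signal too weak to be called.

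L1 (long interspersed element 1) is the main family of autonomous retrotransposons in the mouse. A full-length copy holds an internal promoter and encodes an RNA-binding protein and a protein with endonuclease and reverse transcriptase activity. Most copies are cut short at the 5′ end. In mammalian genomes L1 sequence is concentrated in gene-poor, late-replicating chromatin that tends to lie at the nuclear periphery, whereas short interspersed elements such as B1 concentrate in gene-rich chromatin. L1 transcripts are present in mouse embryonic stem cells and early embryos. Mouse chromosome 11 is known as a gene-rich chromosome. In the RefSeq table of the later build GRCm38.p6 it holds 1609 protein-coding genes, a count exceeded among the 19 autosomes only by chromosomes 7 (2030) and 2 (1782). Chromosomes 7 and 2 had 9.48 and 8.35 peaks per Mb from the first peak to the last. The median of the 18 autosomes other than chromosome 11 was 8.88. Whether gene number goes with peak density was not tested. The RefSeq table was used only to count genes by chromosome, because its positions are not those of mm9, the build of the peaks. Which genes or repeats lie at a given peak was therefore not annotated here, and no peak sequence is shown.

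Peaks were sparser on chromosome 11 than on any other autosome, and 45.5% of its span lay in long stretches without a peak. From the first peak, which starts at 3014723, to the end of the last at 121761283, the span of 118.7 Mb held 5.20 peaks per Mb. The other 18 autosomes ranged from 6.38 on chromosome 19 to 12.6 on chromosome 3, with a mean of 9.14 ± 1.32 (SD, n = 18 autosomes). Pooled, those 18 held 21367 peaks, or 9.33 per Mb, which put chromosome 11 at 0.56 of their density. By covered bases the order at the lower end was the same, with 3.53% of the span of chromosome 11 inside peaks, 4.54% on chromosome 19 and 6.14% on the 18 pooled. Chromosome 11 held 2.81% of all autosomal peaks (95% exact binomial interval 2.60 to 3.04), on a span of 118.7 Mb beside 2289 Mb for the other 18 together. There is 1 library and no replicate, so no difference between chromosomes could be set against replicate spread, no test was run, and every comparison describes this peak list. The binomial intervals treat peaks as independent and cover counting error only.

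**Figure D1:**
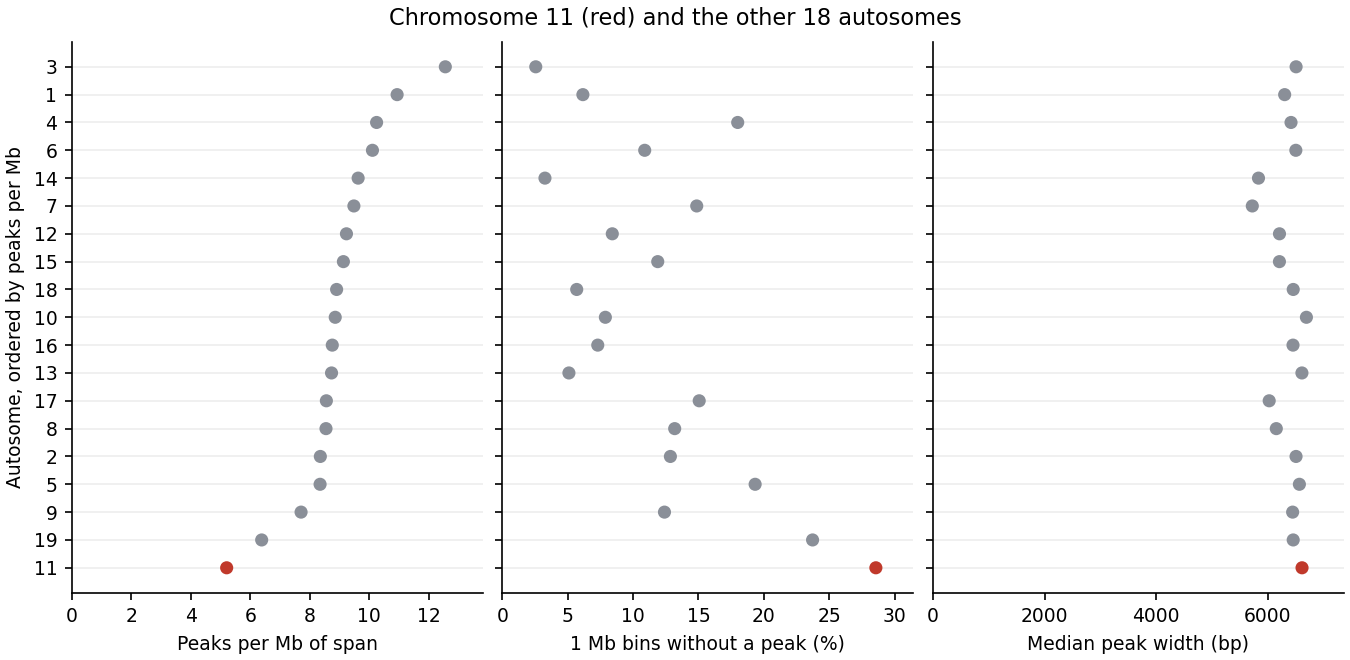
Each point is 1 autosome, ordered by peaks per Mb of span (left), with the share of its 1 Mb bins that hold no peak (middle, %) and its median peak width (right, bp). Chromosome 11, in red, is lowest in density at 5.20 peaks per Mb and highest in empty bins at 28.6%, while its median width of 6618.5 bp is second highest, below the 6697 bp of chromosome 10.

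The sparseness came with more empty ground and with fewer peaks on the occupied ground. Of the 119 bins of 1 Mb from the first peak to the last, 34 (28.6%) held no peak. The share on the other autosomes ran from 2.55% on chromosome 3 to 23.7% on chromosome 19, and was 10.7% over all 18. A further 40 bins of chromosome 11 held 1 to 4 peaks, 22 held 5 to 9, 17 held 10 to 19 and 6 held 20 or more. The median bin held 3 peaks, against medians from 4 to 11 on the other autosomes. Bins that held any peak had 7.27 peaks on average, against 10.4 for the 18 pooled and 8.27 on chromosome 19, the next lowest. With all stretches over 1 Mb taken out of every span, chromosome 11 had 9.55 peaks per Mb and the 18 pooled had 11.9, a ratio of 0.80. It was still the lowest of the 19, the next being chromosome 13 with 10.5.

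Most of the difference from the other autosomes lay in the distal part of the chromosome. Mouse autosomes have the centromere at the end from which positions are counted. Of the 618 peaks, 477 (77.2%, interval 73.7 to 80.4) lay in the centromeric 50% of the span and 141 in the distal 50%, a ratio of 3.38. On the other 18 autosomes this ratio ran from 0.71 on chromosome 16 to 2.10 on chromosome 15. Per Mb outside stretches of over 1 Mb it was 1.63 on chromosome 11 and 0.74 (chromosome 19) to 1.86 (chromosome 7) on the others, with chromosome 7 alone above chromosome 11. The median peak of chromosome 11 lay 23.6% of the way along the span, at position 30998903, whereas on the others it lay between 29.5% (chromosome 9) and 55.9% (chromosome 14). A split after the first 40% of the span, chosen after the values were seen, separated the 2 parts further. The first 40% held 9.43 peaks per Mb, within the range of the others (6.22 to 15.9, mean 10.7 ± 2.18, n = 18) with 4 of the 18 below it. The last 60% held 2.39 per Mb, below the 5.23 of chromosome 19 and the mean of 8.09 ± 1.42 of the other 18. At the mean densities of the other autosomes the first 40% of chromosome 11 would hold 508 peaks, where it held 448, and the last 60% would hold 577, where it held 170.

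The step between these parts was abrupt at the scale of 10% of the span, but segments of 10 Mb were less even. From position 10000001 to 60000000 such segments held, in turn, 15.4, 10.7, 5.4, 10 and 2.9 peaks per 1 Mb bin. In the first 4 steps of 10% chromosome 11 had 10.3, 10.0, 8.25 and 9.18 peaks per Mb. These were 0.82 to 0.93 of the median of the other autosomes at the same place. In the next step it had 2.44, where the others had 3.56 to 15.2. Falls as steep occurred elsewhere. Chromosome 15 went from 10.9 to 2.39 peaks per Mb between neighbouring steps, and chromosome 4 from 8.65 to 0.54. Chromosome 11 then had 4.38, 1.43, 2.95, 1.85 and 1.26 in the remaining steps, or 0.18 to 0.45 of the median of the others. It was the lowest of the 19 autosomes in 3 of these 6 later steps, and in the other 3 only 1 or 2 autosomes lay below it. The median autosome also thinned towards its distal end, from 12.5 peaks per Mb in the first step to 3.76 in the last, so the last step of chromosome 11 lay at 0.34 of a value that was itself low.

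**Figure D2:**
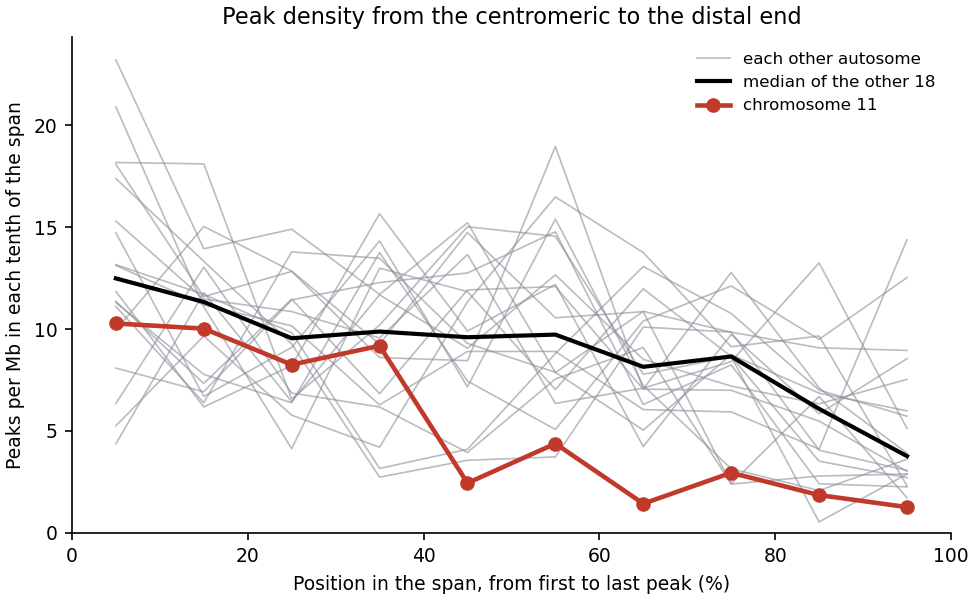
Peaks per Mb in each 10% step of the span, from the first (centromeric) peak to the last, with chromosome 11 in red, each of the other 18 autosomes as a thin line and their median in black. Chromosome 11 runs between 8.25 and 10.3 peaks per Mb over the first 4 steps and at 4.38 or below in every later step.

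Peak-rich ground formed 10 islands, here runs of neighbouring 1 Mb bins with 10 or more peaks each. They took up 23 of the 119 bins (19.3%) and held 366 of the 618 peaks (59.2%, interval 55.2 to 63.1). On the other autosomes such bins made up 25.4% (chromosome 19) to 56.7% (chromosome 3) of the bins and held 67.9% to 87.0% of the peaks. With a fixed limit of 10 peaks, a chromosome of lower density tends to have fewer such bins. These shares are therefore not a trait separate from the low density. The 2 longest islands of chromosome 11 alone held 235 peaks, or 38.0%. Of the 10 islands, 6 with 311 peaks lay before position 50000001 and 4 with 55 peaks lay beyond it.

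The longest island, chr11:10000001-19000000 (mm9), had 152 peaks in 9 bins, which covered 11.3% of its sequence. Every one of its bins held 12 to 23 peaks, and the longest distance between neighbours in it was 458 kb. It ended sharply on the distal side, where the next bin held 2 peaks. The second, chr11:26000001-31000000, had 83 peaks in 5 bins of 12 to 23 peaks and covered 11.6%. These islands had nearly the same density, 16.9 and 16.6 peaks per Mb, and median widths of 6600 and 6636 bp. Between them lay 7 bins with 41 peaks, of which only chr11:21000001-22000000 reached 10. The length of 9 Mb is near the middle of the longest islands of the other autosomes, which ran from 3 Mb on chromosome 19 to 19 Mb on chromosome 4.

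The other islands before position 50000001 were short. The bins chr11:7000001-8000000 and chr11:21000001-22000000 held 10 peaks each and so just reached the limit. The island chr11:40000001-42000000 held 37 peaks, 25 of them in its first bin, which was the fullest on the chromosome. Only 1 of those 37 peaks was wider than 10 kb. In chr11:48000001-49000000 the 19 peaks were wider, with a median of 9399 bp and 7 above 10 kb, so that they covered 17.4% of the bin. That is more cover than in the bin with 25 peaks (15.3%). The number of peaks and the bases they cover therefore do not give the same order of bins.

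The 4 islands beyond position 50000001 were each 1 bin long. The bin chr11:56000001-57000000 held 10 peaks. The bin chr11:73000001-74000000 held 24, the second highest number on chromosome 11 after the 25 of chr11:40000001-41000000. Its peaks lay within 823 kb, from 73169299 to 73991939, had a median width of 7354 bp and covered 20.6% of the bin, the highest cover of the 5 fullest bins. The surroundings were nearly empty. The bin before it held none and the one after it held 3. The 14 bins on its centromeric side, chr11:59000001-73000000, held 25 peaks in all, and the 15 on its distal side, chr11:74000001-89000000, held 20. The bins chr11:90000001-91000000 and chr11:92000001-93000000 held 11 and 10 peaks, none of them wider than 10 kb. They are separated by 1 bin of 5 peaks and belong to a block of 5 bins, chr11:89000001-94000000, with 35 peaks and a median width of 5361 bp.

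**Figure D3:**
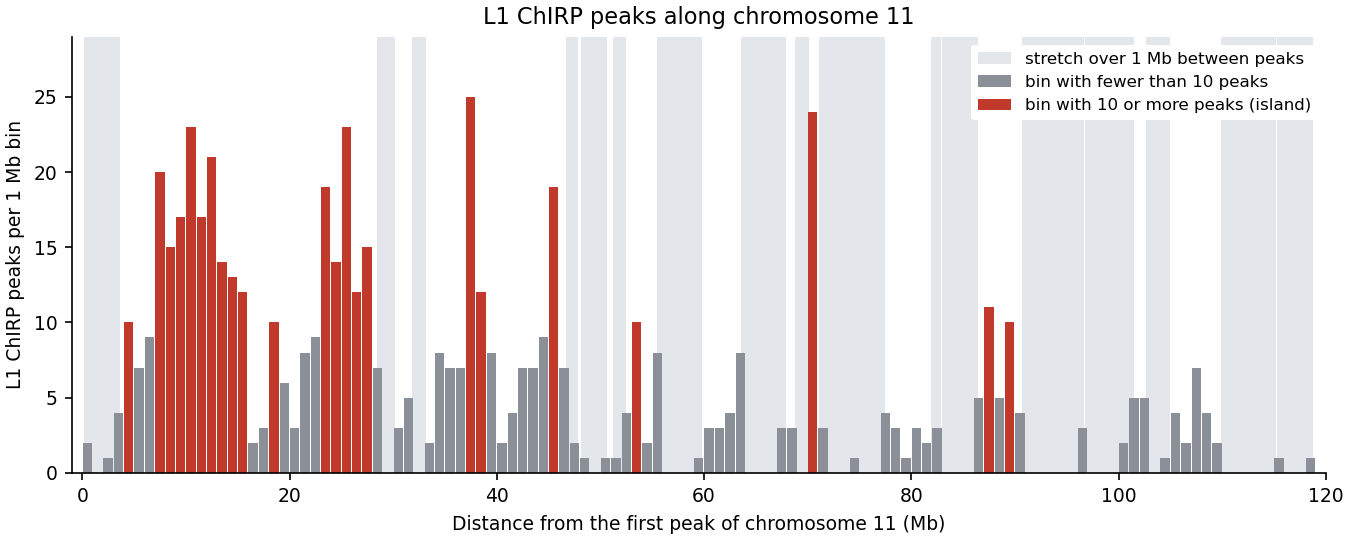
Peaks in each 1 Mb bin of chromosome 11, by distance from its first peak (Mb), with bins of 10 or more peaks in red, other bins in grey and stretches of over 1 Mb between neighbouring peaks shaded. The 2 longest islands lie in the first 30 Mb, and in the distal part no bin exceeds 11 peaks except the single bin of 24.

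Between neighbouring peaks there were 20 stretches of over 1 Mb, which added up to 54.0 Mb or 45.5% of the span. On the other autosomes the number ran from 5 on chromosome 3 to 21 on chromosome 2. Their share of the span ran from 5.77% on chromosome 3 to 44.3% on chromosome 19, and only chromosome 19 came within 10 percentage points of chromosome 11. Of the 20 stretches, 15 started beyond position 50000000, on ground that holds 72 of the 119 bins. Stretches longer than 3 Mb numbered 9 and made up 36.8 Mb. The chromosome did not hold the longest stretch of the 19, since the longest on chromosome 4 measured 13.4 Mb against 6.03 Mb on chromosome 11, and 4 autosomes had a longer one than chromosome 11.

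The longest stretch was chr11:93663138-99688342, of 6.03 Mb. It was followed, after 3 peaks, by chr11:99790843-103417833 of 3.63 Mb, so that the 9 bins of chr11:94000001-103000000 held 3 peaks. The next longest, chr11:112917226-118242495 of 5.33 Mb, and chr11:118250417-121757518 of 3.51 Mb were separated by a single peak of 7921 bp. The 9 bins of chr11:113000001-122000000 held 2 peaks. Between these distal stretches, chr11:103000001-113000000 held 32 peaks with no bin above 7. The last 10 Mb of the span held 5 peaks, or 0.50 per Mb, where the other autosomes had 2.40 to 12.9. Further stretches were chr11:66600320-70896391 (4.30 Mb), chr11:58494285-62779391 (4.29 Mb), chr11:85998020-89415376 (3.42 Mb), chr11:77250974-80457733 (3.21 Mb) and chr11:74091712-77245331 (3.15 Mb). The tenth, chr11:51178848-53645628, measured 2.47 Mb and the other 10 ran from 1.04 to 2.38 Mb.

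The centromeric end was not among the dense ones. The stretch chr11:3177812-5554365 of 2.38 Mb began after the first 2 peaks, and the 7 bins of chr11:3000001-10000000 held 33 peaks. The first 10 Mb of the span held 8.60 peaks per Mb. The other autosomes ranged from 4.20 to 22.5 there, with a median of 11.6, and 2 of them lay below chromosome 11.

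Spacing on chromosome 11 was the widest of the 19 autosomes at the median and at the limit of the longest 10% of gaps. Its shares of gaps of 10 kb or less and of over 1 Mb lay within the range of the others. On chromosome 11 the median distance from a peak's end to the next start was 47.4 kb, against medians from 30.6 kb (chromosome 7) to 43.6 kb (chromosome 16). The gap exceeded by the longest 10% was 339 kb, against 168 to 323 kb. Gaps of 10 kb or less made up 20.4% of the 617 gaps, within the range of the others (20.2% to 27.7%). Gaps of 100 kb to 1 Mb made up 29.3%, against 18.2% to 26.8%. Gaps of over 1 Mb made up 3.24%, second to the 3.50% of chromosome 19. Within the distal 50% of the span the median gap was 86.4 kb, against 30.9 to 53.0 kb on the others, and within the centromeric 50% it was 42.0 kb, inside their range of 23.8 to 42.7 kb.

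**Figure D4:**
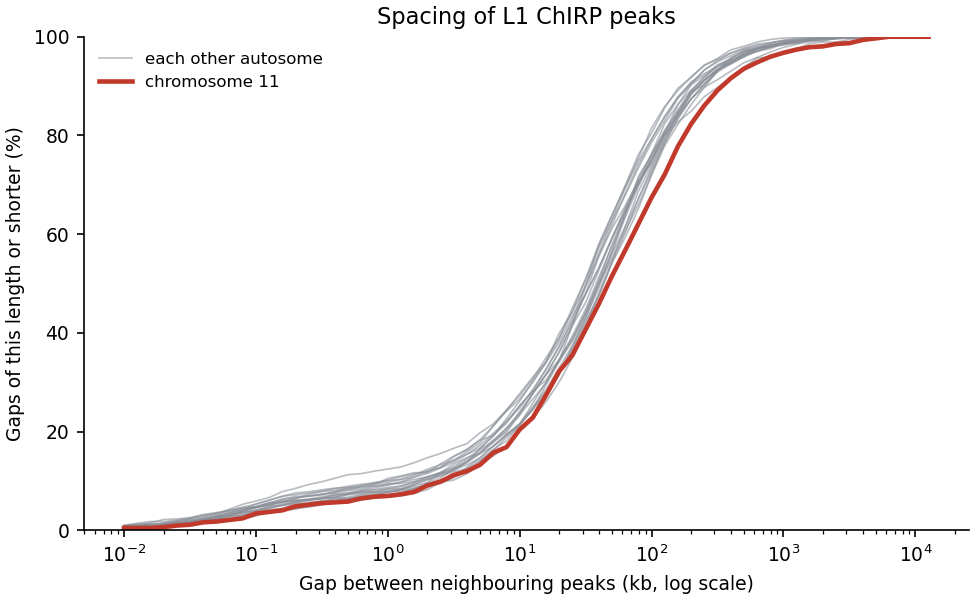
Share of gaps between neighbouring peaks (%) at or below each length (kb, log scale), for chromosome 11 in red and each other autosome in grey. The red curve lies near the lower edge of the others for short gaps and has 29.3% of its gaps between 100 kb and 1 Mb, above the 26.8% of the next autosome, while for the longest gaps other autosomes reach as far or further.

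Close neighbours were at the lower edge of what the autosomes showed. Of the 618 peaks, 210 (34.0%, interval 30.2 to 37.9) had another within 10 kb, where the other autosomes had 34.7% to 46.8%. After peaks closer than 1 kb were joined the share was 25.04%, and 2 other autosomes were then lower. Inside the islands the share was 46.4% of 366 peaks, beside 46.1% in the same kind of bin on the other autosomes. Outside them it was 15.9% of 252, beside 20.7%. Bins outside islands held fewer peaks each on chromosome 11 than on the others, which by itself tends to make close neighbours fewer. Since islands were chosen for their number of peaks, a higher share inside than outside follows from the choice. At the other extreme, 88 peaks (14.2%, interval 11.6 to 17.2) lay over 100 kb from any other, where the others had 6.52% to 11.3%. The shares within 10 kb and over 100 kb both tend to follow peak density, which was lowest on chromosome 11.

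Peaks with gaps of up to 10 kb were joined into chains. Single peaks numbered 408, pairs 58 and chains of 3 numbered 15, and 11 chains had 4 or more peaks and held 49 peaks in all (7.93%). On the other autosomes such chains held 4.004% to 11.02% of the peaks, less than on chromosome 11 in 10 of 18. The longest chain, chr11:40892678-40934579, had 6 peaks of 3582 to 9637 bp that covered 85.2% of its 41.9 kb. It lies in the fullest bin. Chains of 5 lay at chr11:15166509-15215739, chr11:15674827-15708744 and chr11:58319349-58350246, the first and second of these in the longest island. Of the 7 chains of 4 peaks the longest in bases, chr11:16338890-16386598 of 47.7 kb, lies in the same island. The longest chains of the other autosomes had 6 to 12 peaks.

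The 5 most isolated peaks lay outside the islands, 4 of them in the distal 50% of the span. Both placements largely follow from the choice, since island bins hold 10 or more peaks and gaps were longer in the distal 50%. The peak chr11:118242496-118250416 and the last peak, chr11:121757519-121761283, were each other's nearest neighbours, 3507 kb apart. The peak chr11:77245332-77250973, of 5642 bp, had its nearest neighbour 3154 kb away. Next came chr11:5554366-5557819, with 1133 kb to its nearest, and chr11:84860010-84863085, with 735 kb.

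In width the peaks of chromosome 11 were much like those of the other autosomes. The median was 6618.5 bp (95% order-statistic interval 6390 to 6769), with quartiles of 4381.5 and 8461.75 bp, against 6365 bp (6334 to 6399) for the 18 pooled. Single autosomes had medians from 5726.5 bp on chromosome 7 to 6697 bp on chromosome 10. The chromatin had been sonicated to 2 to 5 kb. The fullest class of 1 kb was 6 to 7 kb on both, with 17.96% of the peaks of chromosome 11 and 16.88% of the others. Peaks of 6 to 7.5 kb, a range that holds the length of full-length mouse L1, made up 23.1% (interval 19.9 to 26.7), beside 23.4%. Peaks wider than 10 kb made up 13.3% (10.7 to 16.2), beside 12.1%, and peaks under 2 kb 2.91% (1.74 to 4.56), beside 4.33%.

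**Figure D5:**
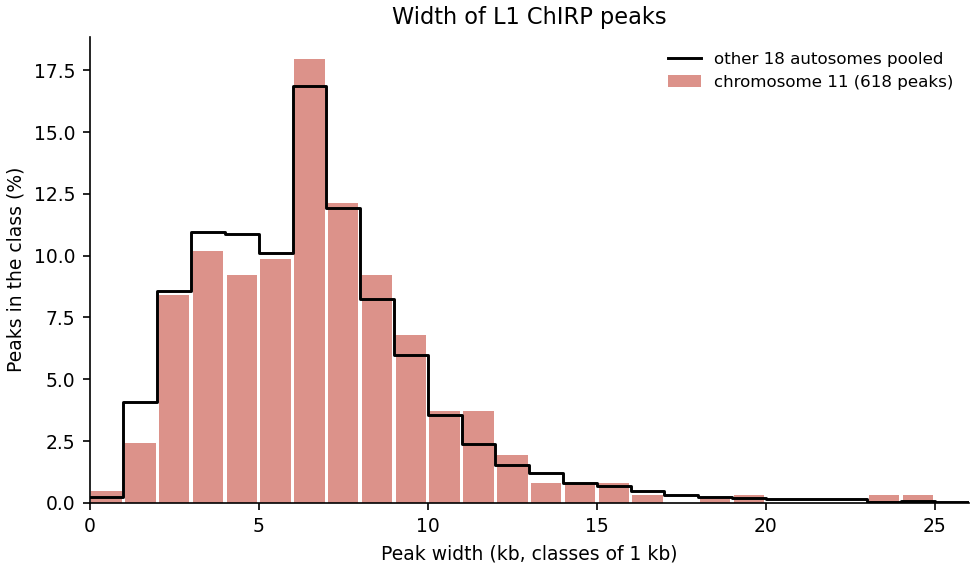
Share of peaks (%) in each 1 kb class of width, for the 618 peaks of chromosome 11 (red bars) and the other 18 autosomes pooled (black line), with widths above 26 kb, which chromosome 11 lacks, not drawn. Both have their fullest class at 6 to 7 kb, with 17.96% and 16.88% of peaks.

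Width differed little between island peaks and the rest, but varied among single islands and segments. Island peaks had a median of 6626.5 bp and the others 6560 bp, and the share wider than 10 kb was 13.4% and 13.1%. The centromeric and distal 50% of the span had medians of 6637 and 6445 bp. The median ran from 4586 bp in the 11 peaks of chr11:90000001-91000000 to 9399 bp in the 19 peaks of chr11:48000001-49000000. By segments of 10 Mb with over 1 peak it ran from 5614 bp, in chr11:90000001-100000000, to 7588 bp in the 33 peaks before position 10000001. By distance to the nearest peak, those within 10 kb of another had a median of 6232 bp, those 10 to 100 kb away 6776.5 bp and those over 100 kb away 6375.5 bp. In the same order, 23 of 210 (10.95%), 52 of 320 (16.3%) and 7 of 88 (7.95%) were wider than 10 kb. On the other autosomes these shares were 13.5%, 11.4% and 9.54%, a different order. No intervals were computed for these shares, and those of chromosome 11 rest on few wide peaks.

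Of the 5 widest peaks 4 lay in islands, which held 59.2% of all peaks of the chromosome. The widest, chr11:73420557-73445311 of 24755 bp, and the fifth widest, chr11:73806718-73826478 of 19761 bp, both lie in the distal bin of 24 peaks. The third, chr11:13704087-13728008 of 23922 bp, lies in the longest island, 202 bp from its neighbour, and the fourth, chr11:48126857-48150528 of 23672 bp, in the bin of 19. The second, chr11:9248145-9272633 of 24489 bp, lies in a bin of 9 peaks beside the longest island. The 5 narrowest measured 589 to 1224 bp, and 4 of them lay outside the islands, the exception being chr11:17510274-17510862.

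Bins next to each other held similar numbers of peaks. The Spearman correlation between the numbers in bins 1 Mb apart was 0.63 on chromosome 11 over 119 bins, against 0.27 (chromosome 19) to 0.71 (chromosome 1) on the others. At 5 Mb it was 0.11, inside the range of -0.10 to 0.39. Bins share 1 library and are not independent, so these are descriptions. The densest 10% of bins, 12 of them, held 38.5% of the peaks, second to 40.3% on chromosome 19 and above the 22.7% to 31.1% of the other 17.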

How the data were processed

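The L1 peak list was deposited by the authors as 3 columns that give a chromosome, a start and an end, with no height or score. Per the submitters' processing notes, CASAVA, Bowtie2 2.2.2 and MACS 1.4.2 were used with build mm9, without stated roles or settings. For the control used in peak calling and the handling of multi-mapping reads, nothing is given in the sources used here.

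Starts were taken as counted from 0 and are printed from 1. A peak belongs to the 1 Mb bin of its midpoint. Density is peaks per Mb from the first peak to the last. Assembly gaps were not removed. Python 3.11.15 was used with scipy 1.17.1, pandas 2.3.3 and numpy 2.4.6, and figures were made in matplotlib 3.10.9. In 20 simulated layouts, 100 of 100 known counts of islands, occupied bins, near neighbours, merged peaks and peak-free stretches were recovered. Every simulated island was 1 bin long, and the other measures were not checked in this way. The members, limits and named regions were chosen with earlier results of these data known. Named regions are all islands, the 5 fullest bins, the 10 longest stretches, and the 5 widest, narrowest and most isolated peaks and longest chains. Other blocks of bins were named after their values were seen. Genes could not be named, because no mm9 annotation was used here.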

Additional observations from a re-analysis of the deposited data

How the results depend on the processing

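There were 8 results and 29 alternatives, 5 of them chosen after seeing the data. Of the alternatives, 17 stayed within the counting interval or, for counts, within 1.5 times. Only the density ratio and the ratio of the centromeric to the distal 50% have a direction that could reverse, and neither did. The other results could only stay or move. The density ratio of 0.56 became 0.70 over bins that hold a peak and 0.80 without stretches over 1 Mb, and chromosome 11 had the lowest density of the 19 autosomes under the 6 density measures tried. Empty bins were 39.1% at 0.5 Mb and 15.0% at 2 Mb, the highest of the 19 at both sizes. There were 40 stretches over 0.5 Mb and 12 over 2 Mb. Peaks with a neighbour were 23.3% within 5 kb, 72.0% within 50 kb and 25.04% within 10 kb after peaks closer than 1 kb were joined. Chromosome 11 was the lowest of the 19 for the first and second of these, but 2 autosomes lay below it for the last. The median width became 6833 bp after that joining. The ratio of the centromeric to the distal 50% was 2.30 without the longest island and 1.63 per Mb without stretches over 1 Mb. No paired analysis was possible because only the L1 library was analysed. Depth is unknown.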
